A study of Mus musculus with 11 samples.

Results

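Milk is rich in calcium, and the secretory epithelium of the mammary gland moves that calcium from blood into the lumen of the alveoli. The genes described here are 10 of calcium transport and its control. They are the calcium pumps Atp2b1, Atp2b2, Atp2b4, Atp2c1, Atp2c2, Atp2a2 and Atp2a3, the entry channel Orai1, its sensor Stim1, and Pthlh, which encodes the hormone PTHrP. They were chosen by symbol, and all 10 were found among the 14847 named genes of the expression table, on 19 of its 30305 loci. Values come from 1 RNA-seq library of poly(A) RNA from whole mammary tissue without lymph nodes, taken at parturition (L1) from wild-type mice of the mixed background 129SV::FVB/N::C57BL/6. No treatment, transgene or deletion is named for this group, and the labels do not say how many animals the library stands for. The series also holds ChIP-seq samples of STAT5A, H3K4me3 and input at day 6 and day 13 of pregnancy and at parturition, which were not used here.

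The unit is FPKM, fragments scaled to transcript length and to the total mapped, so that levels can be compared between genes of different length. A gene took the value of its highest locus, a locus being 1 transcribed unit of the authors' transcript assembly. With 1 library there was no replicate, no difference could be set against the spread between animals, and no p-value was computed. Sequencing depth is unknown, so no counting interval can be given. The order of neighbouring genes is the order in this library.

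In textbook accounts, calcium enters the alveolar cell across its basal side, is kept low in the cytosol by pumps that use ATP, and leaves either through the Golgi, where it is packed with casein into secretory vesicles, or directly across the apical membrane. Pumps of the plasma membrane (the Atp2b genes, PMCA proteins) export calcium from the cell. Pumps of the Golgi (Atp2c, SPCA proteins) carry calcium and manganese into the secretory pathway, and pumps of the endoplasmic reticulum (Atp2a, SERCA proteins) fill the ER store. When that store empties, Stim proteins in the ER membrane open Orai channels in the plasma membrane. PTHrP from the lactating gland acts on bone, from which it releases calcium into the blood.

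Golgi and apical pumps had the highest levels of the 10 genes. Atp2c2 stood at 85.9 FPKM, Atp2b2 at 55.7, Atp2c1 at 49.1 and Atp2a2 at 22.9, and these 4 genes held 85.3% of the 250.4 FPKM summed over the 10. Next came Pthlh at 13.8 FPKM, Orai1 at 7.95 and Atp2b1 at 7.17. Stim1 at 3.96 FPKM, Atp2b4 at 2.005 and Atp2a3 at 1.94 were lowest, although Stim1 passes Atp2b1 when loci are summed. From the highest to the lowest gene the levels spanned a factor of 44.4.

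All 10 genes reached 1 FPKM, as did 73.6% of all named genes. At 10 FPKM there were 5 of the 10, against 27.9% of all named genes, and at 50 FPKM there were 2 of the 10, against 5.81%. Their median was 10.9 FPKM, beside 3.90 for all named genes. The 10 genes were chosen with earlier results of these data known, so these counts and this median describe the chosen set only. Atp2c2 ranked 494 among the named genes, Atp2b2 763 and Atp2c1 880, so that these 3 pumps stood above 96.7%, 94.9% and 94.1% of them. Atp2a2 stood above 86.8% of named genes and Pthlh above 78.9%. At the other end Stim1 stood near the middle, above 50.3% of named genes, and Atp2b4 and Atp2a3 stood below it, above 36.9% and 36.3%. Ranked only among genes at 1 FPKM or more, Stim1 stood above 32.5%, Atp2b4 above 14.3% and Atp2a3 above 13.4%.

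**Figure D1:**
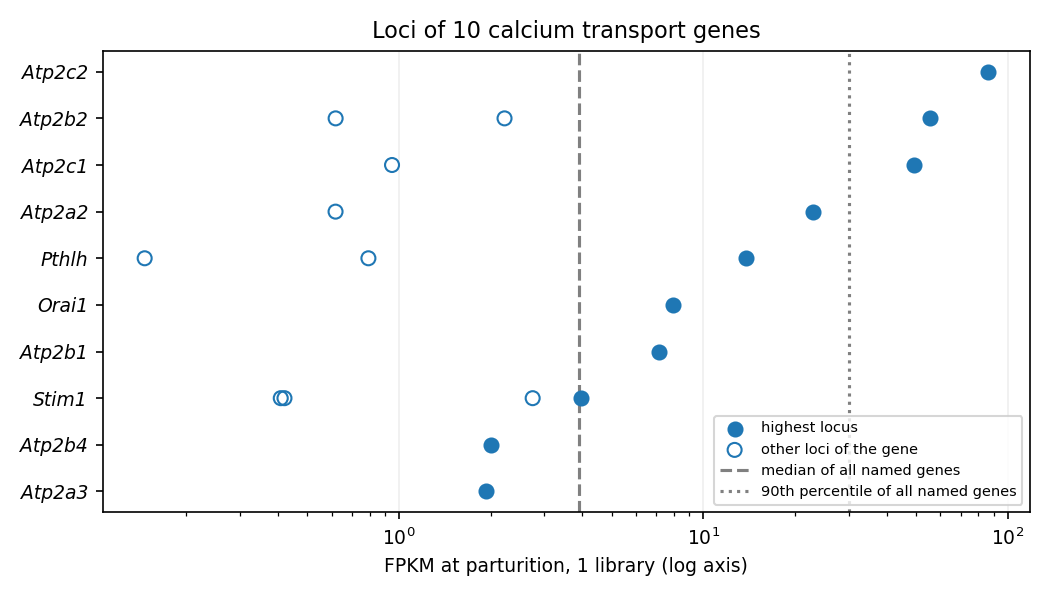
FPKM of every locus of the 10 genes at parturition in 1 library, on a log axis; filled points mark the highest locus of each gene, open points its other loci, and vertical lines the median (3.90) and the 90th percentile (30.2) of all named genes. Atp2c2, Atp2b2 and Atp2c1 lie beyond the 90th percentile, and Stim1 has a second locus close to its highest.

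The assembly split 5 of the 10 genes over several loci, as it did 25.8% of all named genes. Atp2b2 had a locus at 55.7 FPKM and others at 2.22 and 0.62, so its highest locus held 95.1% of the gene's summed FPKM. Atp2c1 had loci at 49.1 and 0.95 FPKM, Atp2a2 at 22.9 and 0.62, and Pthlh at 13.8, 0.79 and 0.15, with 98.1%, 97.4% and 93.6% in the highest. In these 4 genes the other loci add little to the level. Over all 3785 named genes with several loci and a signal, the highest locus held a median of 79.4%, and it held at least 90% in 32.8% of them.

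Stim1 was the exception among the 10. Its loci stood at 3.96, 2.75, 0.42 and 0.41 FPKM, and the highest held only 52.6% of the sum. Summed over loci, Stim1 came to 7.54 FPKM, which is 1.90 times its highest locus and places it above 63.4% of named genes instead of 50.3%. The order of Stim1 and Atp2b1 then turns, since Atp2b1, on 1 locus, stays at 7.17 FPKM, and the lowest genes of the 10 are Atp2a3, Atp2b4 and Atp2b1. The positions and lengths of the loci were not used here, so which part of a gene each locus covers cannot be told. FPKM is scaled to length, so where loci are pieces of the same transcript, their sum overstates the level of the gene. The summed value is therefore an alternative setting and not a better estimate.

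Among the plasma membrane pumps, Atp2b2 stood far above its relatives. Atp2b2 encodes PMCA2, the pump of the apical membrane of milk-secreting cells, and mice that lack it make milk poor in calcium. Its 55.7 FPKM was 7.76 times the 7.17 FPKM of Atp2b1, a pump found in most cell types, and 27.8 times the 2.005 FPKM of Atp2b4, another widely expressed member. Of the FPKM summed over these 3 genes, Atp2b2 held 85.9%, Atp2b1 11.1% and Atp2b4 3.09%. The fourth gene of the family, Atp2b3, known mainly from brain, was not among the named genes of the table.

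Atp2b2 is also the gene with the most start sites among the 10 in the RefSeq promoter table of the build GRCm38.p6, with 3 windows of 250 bases before to 50 after a start. They are shown because they differ in CpG content, a feature that separates broadly used promoters from many tissue-restricted ones. The last 100 bases of each window follow, all from the minus strand and written 5′ to 3′ in the order of transcription, with CpG pairs in capitals.
Atp2b2 upstream start, chr6:114042031-114042130: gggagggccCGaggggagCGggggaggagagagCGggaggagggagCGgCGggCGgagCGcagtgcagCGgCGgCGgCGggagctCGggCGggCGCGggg
Atp2b2 middle start, chr6:113934632-113934731: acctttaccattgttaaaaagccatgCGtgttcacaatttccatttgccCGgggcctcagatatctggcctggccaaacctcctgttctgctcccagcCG
Atp2b2 downstream start, chr6:113891490-113891589: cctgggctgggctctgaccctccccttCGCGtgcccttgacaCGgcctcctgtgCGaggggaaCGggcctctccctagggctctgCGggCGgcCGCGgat

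The whole upstream window held 27 CpG pairs, more than 84.5% of all 32851 windows of the table, and the middle and downstream windows held 8 and 12, more than 51.4% and 60.4%. Which of these starts the 55.7 FPKM of Atp2b2 comes from was not tested, since the expression table gives no positions. The starts of Atp2c1 differed more than those of Atp2b2, with 36 CpG pairs in one window and 8 in the other. Atp2b1, with 54 and 45, had the most, and Atp2b4, with 4, had the fewest among the windows of these genes. The single windows of Stim1, Orai1, Pthlh and Atp2a3 held 38, 36, 33 and 25. Over all windows of the table the median was 7. The table matched 8 of the 10 genes, and Atp2c2 and Atp2a2 are without an entry.

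Both Golgi pumps were high. Atp2c2 encodes SPCA2, a pump found mainly in secretory epithelia that can also bind Orai1 and let calcium enter without emptied stores. Atp2c1 encodes SPCA1, the form present in most cell types, which supplies the Golgi with calcium and manganese. Atp2c2 at 85.9 FPKM was 1.75 times Atp2c1 at 49.1. Together they came to 134.9 FPKM, or 59.0% of the 228.6 FPKM of all 8 measured calcium pump genes, while the plasma membrane pumps came to 64.9 FPKM (28.4%) and the ER pumps to 28.8 (12.6%). Summed over loci these shares were 58.3%, 29.1% and 12.6%. The ER sum includes Atp2a1 at 4.04 FPKM, the pump gene of fast skeletal muscle. The part of muscle in the ER sum was not tested. Transcript levels say nothing of how much pump protein each membrane held.

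In the endoplasmic reticulum, Atp2a2 was the leading pump. It encodes SERCA2, which most cells use to fill the ER store, and stood at 22.9 FPKM. That was 11.8 times Atp2a3 at 1.94 FPKM, which encodes SERCA3, a form known from blood cells, endothelium and some epithelia. It was 5.66 times Atp2a1 at 4.04 FPKM, the pump of fast skeletal muscle. Of the small peptides that restrain these pumps, sarcolipin (Sln) was at 0.10 FPKM, and phospholamban (Pln) was not among the named genes.

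**Figure D2:**
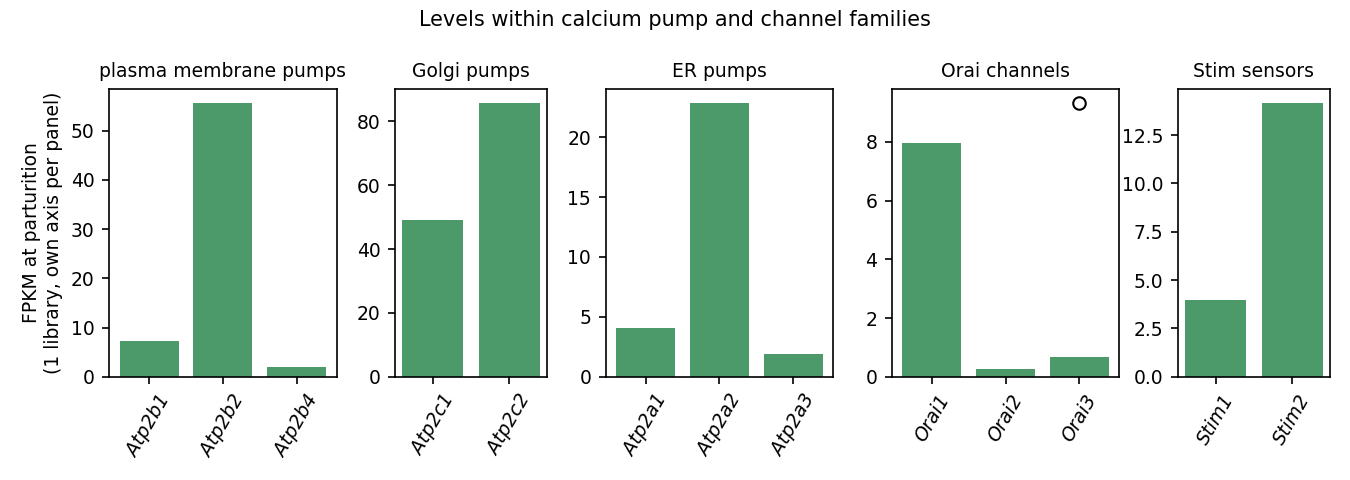
FPKM at parturition in 1 library for the measured genes of 5 families, as bars from 0 with a separate axis in each panel. Atp2b2, Atp2c2, Atp2a2, Orai1 and Stim2 are the tallest bars; the open circle over Orai3 marks the locus at 9.33 FPKM that carries both the Fbxl19 and Orai3 symbols.

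The Orai and Stim genes of store-operated entry were lower than the pump genes Atp2b2, Atp2c1 and Atp2c2. Orai1, the pore subunit of the channel, stood at 7.95 FPKM, and Atp2b2 was 7.01 times as high. Mice without Orai1 make milk with less calcium and eject it poorly. Its paralogs stood at 0.67 FPKM for Orai3 and 0.28 for Orai2, so that Orai1 was 11.8 times Orai3. A locus with the joint symbol of Fbxl19 and Orai3 stood at 9.33 FPKM, however, and if it is counted for Orai3 the ratio of Orai1 to Orai3 becomes 0.85. The reads of the 2 genes on that locus cannot be separated here, so the order of Orai1 and Orai3 is uncertain.

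Of the calcium sensors of the ER, Stim2 was higher than Stim1. Stim1, which opens Orai1 when the store is emptied, stood at 3.96 FPKM, and Stim2, a sensor that responds to smaller losses of stored calcium, stood at 14.2, or 3.58 times as high. Summed over loci the ratio was 1.88. Saraf, listed under its older symbol Tmem66 and known to slow down store-operated entry, was at 67.0 FPKM. Sept2, a cytoskeletal gene, was at 41.1 and Tmem110, which helps Stim1 reach the plasma membrane, at 10.6. In this list of 9 genes, 8 were measured, with a median of 9.28 FPKM. Of the measured genes, 6 reached 1 FPKM and 4 reached 10, against 73.6% and 27.9% of all named genes. Orai3 is taken here at 0.67 FPKM, without the locus it shares with Fbxl19. With that locus, at 9.33 FPKM, Orai3 would also reach 1 FPKM and the median would be higher.

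The promoter of Orai1 was the only one among the windows of these genes with a match to TTCNNNGAA, the palindromic letters that STAT5 and other STAT proteins bind, which read the same on both strands. The match is shown with its surroundings in GRCm38.p6, plus strand, 5′ to 3′, with the match in capitals. It ends 198 bases before the start.
Orai1, chr5:123014827-123014915: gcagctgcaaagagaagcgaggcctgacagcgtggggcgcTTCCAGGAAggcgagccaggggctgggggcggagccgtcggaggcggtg

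That is 1 of 12 windows (8.33%), from 8 of the 10 genes, and 8.30% of all windows in the table hold the same letters. The shares are close, but 1 match in 12 windows is too few to compare these genes with all windows. Atp2c2 and Atp2a2 had no window and were not searched. With 4 bases in place of 3 between TTC and GAA, the form preferred by STAT6, there was again 1 of 12, against 6.95% of all windows. It lay before the middle start of Atp2b2 and is shown on the minus strand, 5′ to 3′, with the match in capitals.
Atp2b2, chr6:113934739-113934828: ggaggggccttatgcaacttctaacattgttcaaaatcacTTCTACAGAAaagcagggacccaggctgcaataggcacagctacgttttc

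These are matches of letters in the reference, and whether STAT5A occupied either of them in this tissue was not tested. The STAT5A peaks of the series are placed in mm9, another build, and were not joined to these windows.

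Pthlh stood at 13.8 FPKM, above 78.9% of named genes. PTHrP is the signal by which the gland draws on the calcium of bone, and its release is restrained by the calcium-sensing receptor. The gene of that receptor, Casr, was not among the named genes of the table. Pth1r, the receptor for PTHrP, was at 1.69 FPKM, so the level of Pthlh was higher than that of its receptor in the same tissue. The G protein genes Gna11 and Gnaq, through which calcium-sensing and PTHrP receptors can signal, were at 20.7 and 12.6 FPKM. Gnas, a gene with several overlapping transcripts, was at 2.43.

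Serotonin made in the gland is known to raise PTHrP. Its synthesis gene Tph1 was at 1.49 FPKM, the serotonin transporter gene Slc6a4 at 1.63 and the receptor gene Htr7 at 0.43. Of the 13 genes in this list 8 were measured, 7 reached 1 FPKM and 3 reached 10, with a median of 2.06.

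Genes of other plasma membrane channels, not all of which pass calcium, and of sodium-calcium exchangers were mostly lower than Orai1. Of 20 genes for other channels and their subunits, 19 were measured, with a median of 0.67 FPKM. Only 8 reached 1 FPKM, against 73.6% of all named genes. The highest were the ATP-gated channel gene P2rx4 at 13.7 FPKM, Trpm4, which passes sodium when calcium rises, at 13.0, and the mechanically gated channel gene Piezo1 (listed as Fam38a) at 12.6. Voltage-gated Cacna1d was listed at 0. The intestinal calcium channel gene Trpv6, named after its value was seen, was at 0.076 FPKM. Sodium-calcium exchangers, which carry calcium out of the cell or, for Slc24a6, out of mitochondria, had a median of 1.39 FPKM over 5 of 9 genes. The highest were Slc24a6 at 8.23 FPKM, Slc24a3 at 6.03 and Slc8a1 at 1.39, and Slc8a2 was lowest at 0.047, against 55.7 for the pump gene Atp2b2.

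Inside the cell, release channels of the stores had a median of 4.60 FPKM over 8 of 10 genes, with Tmco1, an ER leak channel, at 45.7, Tpcn1 at 9.31, Ryr3 at 6.83 and Ryr1 lowest at 0.29. Mitochondrial uptake stood at a median of 10.7 FPKM over 9 genes. Its highest genes were Smdt1 (listed as 1500032L24Rik), a subunit of the uniporter, at 116.6 FPKM, the outer membrane channel gene Vdac1 at 74.0 and Letm1 at 12.1.

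Calcium-binding proteins of the secretory pathway were above every pump in some cases. Their median was 56.6 FPKM over 12 of 14 genes, led by the ER chaperone genes Calr at 395, Hspa5 at 356 and Hsp90b1 at 231, with Rcn1 lowest at 3.02. Cytosolic binders had a median of 34.5 FPKM over 8 of 11 genes, with the calmodulin gene Calm2 at 207.0, S100a11 at 58.8 and Pvalb lowest at 17.7. Calmodulin activates the PMCA pumps. The caseins, which carry much of the calcium of milk, summed to 421514 FPKM over 5 genes, from Csn2 at 170861, Csn1s1 at 142389 and Csn1s2a at 72910 down to Csn1s2b at 7259. That was 1684 times the sum of the 10 genes described here.

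Over all calcium lists other than caseins and the pumps of other ions, and leaving out the 10 genes, 76 genes were measured with a median of 6.43 FPKM. Of these, 55 reached 1 FPKM, 33 reached 10 and 12 reached 50, against 73.6%, 27.9% and 5.81% of all named genes. Pumps for other ions and for lipids, which share the fold of the calcium pumps, had a median of 4.08 FPKM over 13 of 14 genes. Among them Atp13a1 was at 20.2 FPKM and Atp13a2 at 13.4, with Atp10a lowest at 0.33. Atp2c2, Atp2b2 and Atp2c1 were therefore above 12 of these 13 pumps and below 1.

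**Figure D3:**
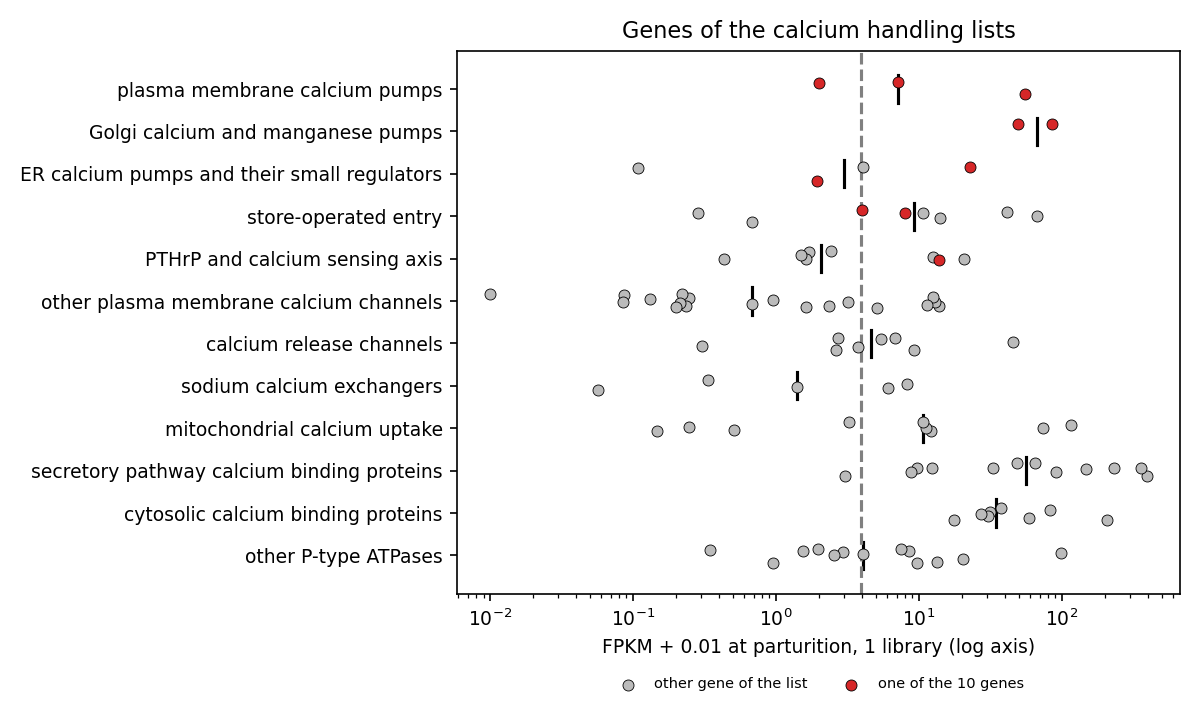
FPKM + 0.01 at parturition in 1 library, on a log axis, for the measured genes of 12 lists. Each point is a gene, and red points are the 10 genes described here. Short black lines are list medians and the dashed line is the median of all named genes (3.90). The Golgi pumps lie right of most channels and exchangers, and secretory pathway binding proteins reach up to 395.

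The tissue was whole gland, so its cell types are pooled, and in such samples fewer cells of a type and less RNA per cell cannot be told apart. Markers of the luminal epithelium were present: all 10 luminal genes were at 10 FPKM or more, against 27.9% of all named genes. The luminal genes had a median of 119 FPKM, with Elf5 at 577, Krt19 at 244 and Krt18 at 179. Adipocyte markers were also high, from 5.51 to 723 FPKM over 8 genes, led by Fabp4 at 723, Cfd at 523 and Car3 at 389. Basal and myoepithelial markers ranged from 3.37 to 59.0 FPKM over 8 of 9 genes, led by Cnn1 at 59.0, Krt14 at 54.2 and Krt5 at 37.9. Skeletal muscle markers ranged from 0.29 to 37.2 FPKM over 11 genes, among them Atp2a1 itself, and were led by Tnnt3 at 37.2, Tnni2 at 27.9 and Ckm at 27.6. The part of muscle in the 22.9 FPKM of Atp2a2, which slow muscle also uses, was not tested.

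Atp2a3, among the lowest of the pumps, is known from blood cells, endothelium and some epithelia. Lymphocyte markers ranged from 0 to 2.47 FPKM over 10 genes, with a median of 0.65 and Ptprc at 2.47, Lck at 1.10 and Ltb at 0.80. Myeloid and platelet markers ranged from 0.38 to 98.5 FPKM over 8 genes, with a median of only 2.49. The highest of the myeloid and platelet markers were Cd14 at 98.5, Lyz2 at 62.0 and Pf4 at 3.39. Endothelial markers ranged from 3.45 to 15.1 FPKM over 6 genes, led by Pecam1 at 15.1, Cdh5 at 14.3 and Egfl7 at 9.88. Atp2a3, at 1.94 FPKM, lay below all 6 endothelial markers and within the range of the lymphocyte and myeloid ones. Which cells of the gland supplied Atp2a3, the epithelium included, was not tested. Of 7 nerve markers 4 were measured, with a median of 0.11 FPKM, and Rbfox3 and Tubb3 were listed at 0.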

How the data were processed

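Poly(A) RNA of 1 library was sequenced on an Illumina HiSeq, per the labels' protocols. The submitters' processing notes name CASAVA, TopHat and the build mm9. The authors deposited FPKM per locus, with the symbol of its gene where it had one; the sources used here do not name the tool behind the FPKM or the sequencing depth. Of the loci, 21958 carried 1 symbol, 117 several and 8230 none, and the latter kinds were left out of gene levels.

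Levels, ratios and shares were computed with Python 3.11.15, pandas 2.3.3 and numpy 2.4.6, with no filter on low values, and the functions were tested on simulated data. A percentile is the percent of named genes below a gene. Older symbols were matched through a RefSeq gene table of GRCm38.p6, and promoter sequences come from RefSeq. The gene windows run along the gene's strand: TATAAA stood just before the start in 299 of 16291 minus-strand windows, and in 86 if read from the other end. The peak lists were not used, because gene positions in mm9 were not at hand.

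The 10 genes and the lists were chosen with earlier results of these data known. Named are the 10 genes, every measured gene of the pump, store-operated and PTHrP lists, the 3 highest and the lowest of other calcium lists, and the 3 highest of cell type lists. Single values of some genes that this choice names are not reported here. With 1 library no genes of like pattern were sought. The alternatives tried are in the closing section.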

Additional observations from a re-analysis of the deposited data

How the results depend on the processing

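Every ratio within a family kept its direction when loci were summed or when 1 FPKM was added to both genes. For Atp2c2 over Atp2c1 these settings gave 1.72 and 1.73, for Atp2b2 over Atp2b1 8.16 and 6.94, for Atp2b2 over Atp2b4 29.2 and 18.9, for Atp2a2 over Atp2a3 12.1 and 8.13, for Atp2a2 over Atp2a1 5.81 and 4.74, and for Stim2 over Stim1 1.88 and 3.06. Orai1 over Orai3 was 5.35 with 1 FPKM added and turned to 0.85 when loci with several symbols were counted for each symbol, an alternative chosen after seeing the data; the other 6 ratios within families did not move under it. With summed loci Stim1, at 7.54 FPKM, stood above Atp2b1 at 7.17. Such sums can overstate a gene that the assembly split, because FPKM is already scaled to length. The number of the 10 genes at 50 FPKM or more was 3 instead of 2 with summed loci, because Atp2c1 then reached 50.02, and the counts at 1 and 10 FPKM stayed at 10 and 5. The median over all 86 genes of the calcium lists was 7.56 FPKM, 7.74 with summed loci and 12.3 with an FPKM minimum of 1, which takes out the low genes by construction. No paired analysis was possible because expression values come from 1 library. Leaving out a replicate was not possible for the same reason, and alternatives planned for STAT5A peaks and H3K4me3 regions near these genes were not run, because gene positions in mm9 were not at hand. Depth is unknown, so how far counting error limits the low values, such as those of Atp2a3 and Atp2b4, cannot be given.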
